A study of Mus musculus with 9 samples.

Results

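The levels of 10 genes for enzymes and a chaperone that modify or cross-link collagen were measured in single cells of the mouse knee. They were chosen by symbol from the 54534 genes listed in the deposited tables, and all 10 were found. They are the lysyl oxidases *Lox*, *Loxl1*, *Loxl2*, *Loxl3* and *Loxl4*, the lysyl hydroxylases *Plod1*, *Plod2* and *Plod3*, the prolyl 4-hydroxylase subunit *P4ha1*, and *Serpinh1*, which encodes the collagen chaperone HSP47.

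A collagen chain is modified in the endoplasmic reticulum before it is secreted. Prolyl 4-hydroxylase, a tetramer of alpha subunits such as P4HA1 with beta subunits of protein disulphide isomerase, hydroxylates prolines and so stabilises the triple helix, and HSP47 binds the folded helix and accompanies it towards the Golgi. Lysyl hydroxylases act on lysines, PLOD1 mainly within the helix and PLOD2 mainly in the telopeptides at its ends. Outside the cell, lysyl oxidases deaminate lysines and hydroxylysines, and the aldehydes that result join neighbouring molecules, with hydroxylysine-derived cross-links being typical of cartilage, bone and scar.

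Cells were taken from knees of *Gdf5-Cre;Tom;Pdgfrα-H2BGFP* mice, aged 11 to 12 weeks, in which *Gdf5*-driven Cre acts in the joint interzone of the embryo and leaves its descendants labelled with tdTomato. Sorting gave Tom+ cells, the *Gdf5* lineage, and Tom-GFP+ cells, which express the *Pdgfrα* reporter without having arisen from that lineage. The sort was thus set to leave out cells with neither reporter, although the clusters below include 105 immune and 46 endothelial cells. Each lineage was sampled in uninjured knees (steady state, 2 Tom+ libraries and 1 Tom-GFP+ library) and 6 days after a surgical scratch through the cartilage of the trochlear groove (injured, 4 Tom+ and 2 Tom-GFP+ libraries). All groups carry the same transgenes, and no sham-operated group is among the labels, so the cartilage injury and the arthrotomy cannot be told apart. The labels give the same age range for all groups. The paper's captions put the steady-state mice at 11 weeks and the injured mice at 12 weeks, so by these age moves with the injury.

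The 9 libraries held 5161 cell barcodes, of which 4788 were kept after filters on genes, UMIs (unique molecular identifiers, counts of single RNA molecules) and mitochondrial share. Of the 5161 barcodes, 28 had a sequence that also occurred in another library, with a shared sequence counted in each library. Libraries held 2866464 to 15033902 UMIs, and the median per kept cell was 8050.5 to 8647 in the steady state against 12223 to 18567 in the injured state, so depth moves with the injury. The injured Tom-GFP+ replicate 2 stood apart, with 277 of 424 barcodes kept and the haemoglobin transcript *Hbb-bs* at 24.1 CPM (counts of a gene scaled to a common library total) against at most 2.10 in the other libraries. Cells were clustered without the 10 genes, the fibrillar collagens and the other genes listed here. By their markers, 4 clusters of 600, 554, 528 and 379 cells were sublining fibroblasts. The others named were fibroblast-like synoviocytes of the lining (FLS), osteoblast-lineage, chondrocyte-lineage, tenocyte-lineage, mural, proliferating, immune, endothelial and adipocyte cells, and clusters 5, 6 and 10 stayed unnamed. The leading genes of cluster 5 were *Il1rl1*, *Il11* and *Cxcl5*, those of cluster 6 were *Mest* and *Tnfsf11*, and those of cluster 10 were *Rspo2* and *Slpi*. For each library the UMIs of a class were added up, and n is a number of libraries throughout.

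The lysyl oxidases share a catalytic domain with a copper site, and the coding bases around it are shown because this site is what the family has in common. The stretches below are those of *Loxl1* to *Loxl4*, and that of *Lox* was not taken. They come from GENCODE vM21 transcripts on GRCm38 and run 5′ to 3′ with the histidine codons in capitals.
Loxl1: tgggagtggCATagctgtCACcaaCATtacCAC
Loxl2: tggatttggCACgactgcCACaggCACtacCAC
Loxl3: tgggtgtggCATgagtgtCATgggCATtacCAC
Loxl4: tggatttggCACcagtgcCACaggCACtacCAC
Each covers 33 bases with 4 histidine codons and crosses an exon junction. Of the 33 bases, 20 are the same in all 4 genes, and *Loxl2* and *Loxl4* share 31. The last 3 histidine positions belong to the copper site. On *Loxl1* (chromosome 9, 58287738 to 58313186, minus strand) the stretch lies in exons 3 and 4, and on *Loxl4* (chromosome 19, 42593982 to 42612813, minus strand) in exons 11 and 12. On *Loxl2* (chromosome 14, 69609068 to 69695834, plus strand) and *Loxl3* (chromosome 6, 83034173 to 83052562, plus strand) it lies in exons 10 and 11. Over whole transcripts the longest run of identical bases was 32 between any 2 lysyl oxidases (*Lox* with *Loxl1*) and 24 between any 2 lysyl hydroxylases (*Plod1* with *Plod3*).

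*Plod2* (chromosome 9, 92542223 to 92608428, plus strand) has an alternative exon that distinguishes the long splice form of the enzyme. It is exon 14 of the annotated transcript that carries it, on chromosome 9 from 92601985 to 92602047, and 1 of the 2 coding transcripts that span it includes it.
Plod2 alternative exon: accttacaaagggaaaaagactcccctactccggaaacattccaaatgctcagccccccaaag
The libraries were made from 5′ ends and the tables count genes, so both splice forms enter the *Plod2* values below.

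The other members lie at chromosome 18, 52516067 to 52529867, minus strand (*Lox*), chromosome 4, 147909753 to 147936767, minus strand (*Plod1*), chromosome 5, 136987019 to 136996648, plus strand (*Plod3*), chromosome 10, 59323296 to 59373304, plus strand (*P4ha1*), and chromosome 7, 99345376 to 99353239, minus strand (*Serpinh1*). On the same strand, *Loxl2*, *Loxl3* and *Plod3* overlap 1 microRNA gene each, and the others overlap no gene. On the opposite strand, *Lox*, *Loxl2*, *Loxl3*, *Plod2* and *Plod3* overlap annotated genes, and the strand setting of the counting is not given in the sources used here.

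After injury, *Lox* and *Plod2* rose in Tom+ sublining fibroblasts, by about an order of magnitude and several-fold respectively, while 7 genes did not pass the test and *Loxl4* was too low to be tested. *Lox*, the founding lysyl oxidase, was at 28.8 and 42.4 CPM in the steady-state Tom+ libraries and at 596, 302, 239 and 256 CPM in the injured ones. The groups did not overlap, and the lowest injured library was several times the highest steady-state one. The log2 fold change of *Lox* was 3.22 (SE 0.43, adjusted p = 0.00279, edgeR). The paper, from these same data, lists *Lox* with *Lum* and several collagens among genes raised after injury within its fibroblast clusters. *Plod2*, the telopeptide lysyl hydroxylase, was at 51.9 and 46.9 CPM in the steady state and at 369, 365, 293 and 233 CPM after injury, again without overlap. Its log2 fold change was 2.62 (SE 0.25, adjusted p = 0.00108). These were 2 of 9 members tested, against 11.2% of the 11954 genes tested (497 higher and 840 lower), and the median log2 fold change was 0.48 over the 9 members and -0.02 over all genes.

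**Figure D1:**
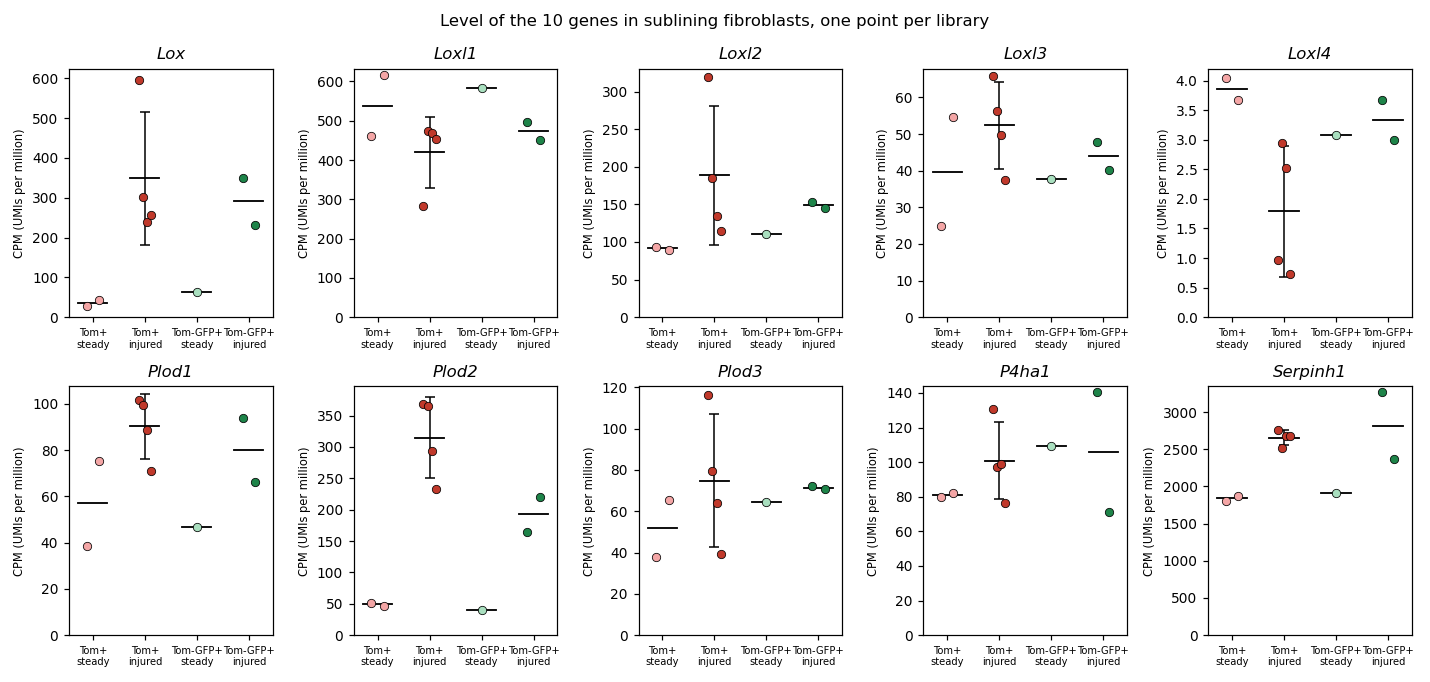
Level of each of the 10 genes in sublining fibroblasts, in CPM on a linear axis from 0, with 1 point per library, the group mean as a bar and the SD where a group has 3 or more libraries. Injured libraries of both lineages lie above the steady-state ones for *Lox* and *Plod2*, and also, over a smaller range, for *Loxl2* and *Serpinh1*.

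The other lysyl oxidases followed several patterns in these cells. *Loxl1*, which acts on elastin as well as collagen, was at 460 and 616 CPM in the steady state and 283 to 473 CPM after injury (log2 fold change -0.40, SE 0.24, adjusted p = 0.311), and the groups overlapped. *Loxl2*, known for its action on basement-membrane collagen, was at 94.0 and 89.3 CPM and then at 319, 186, 134 and 115 CPM (0.98, SE 0.35, adjusted p = 0.105). It was called with DESeq2 (1.09, adjusted p = 0.0463) and without the low-count filter (1.06, adjusted p = 0.000459). All 4 injured libraries were above both steady-state ones, but replicate 1 was far above the rest. *Loxl3* ranged from 24.8 to 54.6 CPM before and from 37.5 to 65.8 CPM after injury (0.34, SE 0.30, adjusted p = 0.504). *Loxl4* was near the detection limit, with 2 to 10 UMIs per library, and did not pass the filter on low counts.

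Among the hydroxylases and the chaperone, shifts were smaller. *Plod1* was at 38.6 and 75.4 CPM in the steady state and 71.0 to 102 CPM after injury (log2 fold change 0.60, SE 0.27, adjusted p = 0.178). *Plod3*, which also carries glycosyltransferase activity, was at 38.0 and 65.6 CPM and then at 39.4 to 117 CPM (0.47, SE 0.36, adjusted p = 0.438). *P4ha1* was at 79.5 and 82.4 CPM and then at 76.5 to 131 CPM (0.27, SE 0.27, adjusted p = 0.569). For these 3 genes the groups overlapped. *Serpinh1*, the collagen chaperone, was detected in 99.7% of sublining cells thinned to 5000 UMIs. It was at 1809 and 1876 CPM in the steady state and at 2762, 2512, 2676 and 2676 CPM after injury, so that the groups did not overlap, although the test did not reach the threshold (0.48, SE 0.19, adjusted p = 0.133).

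Libraries with the older of the 2 gene-list formats were the 3 of the steady state and injured Tom+ replicate 1, so the format moves with the injury. Injured Tom+ replicate 1, in the older format, held the most *Lox* and the most *Plod2* of the sublining sums (596 and 369 CPM). With the format as a block, the injury comparison in Tom+ cells rests on this 1 injured library against the steady-state ones. In that fit *Loxl2* (log2 fold change 1.71) and *Loxl1* (-1.02) joined *Lox* and *Plod2*. Such a fit cannot separate the format from what is particular to this library.

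In Tom+ cells the rise of *Lox* and *Plod2* was present in each of the 4 sublining clusters when it was tested alone, a split chosen after seeing the data. For *Lox* the log2 fold change in Tom+ cells was 3.24 (SE 0.46) in the cluster led by *Dkk2*, 2.25 (SE 0.31) in that with *Ccl11*, 3.16 (SE 0.56) in that with *Anxa8* and 4.97 (SE 0.86) in that led by *Pi16*. The adjusted p-values were 0.00133, 0.00741, 0.00825 and 0.00446. For *Plod2* the changes in the same order were 2.97 (SE 0.28), 2.23 (SE 0.37), 2.43 (SE 0.25) and 2.31 (SE 0.45), with adjusted p-values of 0.000129, 0.0138, 0.000691 and 0.0100. Of all genes tested in Tom+ cells, 799 of 8307 were called in the cluster led by *Dkk2*. In that with *Ccl11* 141 of 7601 were called, and in that with *Anxa8* 711 of 8623. The share for the cluster led by *Pi16* is not given here.

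The share of cells with a UMI was compared after each cell was thinned to 5000 UMIs, since the injured libraries were deeper. *Lox* was then detected in 12.3% and 14.1% of Tom+ sublining cells in the steady state (unthinned 15.4% and 17.3%) and in 50.3% to 80.5% after injury (unthinned 71.1% to 91.1%). *Plod2* was detected in 20.7% and 21.0% before (unthinned 27.4% and 28.03%) and 56.9% to 73.8% after injury (unthinned 75.5% to 93.3%). Free RNA can add UMIs to any cell, and immune and endothelial cells together showed *Lox* in 14.2% and *Plod2* in 4.72% of 106 thinned cells (unthinned 17.2% and 8.61%, and *Lox* 0% to 42.9% by library), at a median of 7974 UMIs against 10032 in sublining cells. Nearly all of those cells came from injured libraries, and their *Lox* lay mostly in endothelial cells (181 CPM in their summed UMIs, against 16.1 CPM in immune cells), so the steady-state background of *Lox* is not known. The shares of *Plod2* were above the pooled share of the immune and endothelial cells in both states. Thinning left out 232 of 2061 sublining cells and 45 of 151 immune and endothelial cells that held fewer UMIs.

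Tom-GFP+ sublining fibroblasts, of the other lineage, had 1 steady-state library, and *Plod2* rose in them. *Plod2* was at 40.1 CPM there and at 164 and 221 CPM after injury (log2 fold change 2.23, SE 0.36, adjusted p = 0.0316). *Lox* was at 63.4 CPM and then at 350.3 and 232 CPM (2.16, SE 0.56, adjusted p = 0.0988), which did not pass, although it was called with DESeq2 (adjusted p = 0.00656) and in 4 other settings. This was 1 of 9 members, against 0.795% of all genes, and the *Plod2* call was lost without either injured Tom-GFP+ library (adjusted p = 0.0967 without replicate 1 and 0.118 without replicate 2). It was also lost without either steady-state Tom+ library (0.0626 and 0.0595) and without injured Tom+ replicate 3 (0.0550), since the groups share 1 estimate of spread. Summed red-cell and immune transcripts in sublining sums were at 129.9 CPM in injured Tom-GFP+ replicate 2 and 2.85 to 74.1 CPM in the others, and their part in the result was not tested.

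No difference between the lineages was detected. The study describes the Tom-GFP+ mice as matched to the Tom+ mice, and the tests treated all libraries as independent. For the interaction of injury with lineage, 0 of 9 members and 0% of all genes were called by edgeR (248 genes at an unadjusted p under 0.05, 0 called by DESeq2). The estimate was -1.06 (SE 0.63) for *Lox* and -0.39 (SE 0.40) for *Plod2*, as the change in Tom-GFP+ minus that in Tom+ cells. Between injured Tom+ and injured Tom-GFP+ cells 0 members were called (edgeR, 0.0251% of all genes, 774 at an unadjusted p under 0.05 and 39 called by DESeq2). *Plod2* had the lowest p of the members there, with a log2 fold change of 0.73 (SE 0.23, adjusted p = 0.481), and its 4 Tom+ libraries were all above both Tom-GFP+ libraries. In the steady state 0 members were called between the lineages as well (edgeR, 0.0251% of all genes, 554 at an unadjusted p under 0.05 and 19 called by DESeq2). With a single Tom-GFP+ library in the steady state, only large differences were detectable.

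FLS, which the paper places in the lining beside distinct *Prg4*-expressing progenitors, had little *Lox* in either state but showed both rises. The unnamed cluster 10 had *Prg4* above and *Thy1* below the other cells (log2 ratios 1.05 and -3.02). Over the injured libraries its mean *Lox* was 406 ± 119 CPM, against 63.7 ± 14.4 CPM in FLS. Whether cluster 10 holds those progenitors was not tested. In Tom+ FLS *Lox* was at 3.25 and 19.7 CPM in the steady state, on 1 and 9 UMIs, and at 60.4, 68.9, 38.0 and 81.1 CPM after injury (log2 fold change 2.32, SE 0.52, adjusted p = 0.0320). *Plod2* was at 124 and 89.9 CPM and then at 287, 281, 227 and 212 CPM (1.31, SE 0.23, adjusted p = 0.0124). Neither gene's groups overlapped, and these were 2 of 9 members against 3.75% of 9063 genes. Without either steady-state Tom+ library neither call remained. The *Lox* call was also lost without injured Tom+ replicate 2 or 4 or either Tom-GFP+ library (adjusted p = 0.0504 to 0.0635), with the format as a block, and with a gate on markers cell by cell, where the change was 0.05 (adjusted p = 0.977). *Loxl2* in FLS was at 137 and 164 CPM before and 116 to 178 CPM after injury (0.01, SE 0.23, adjusted p = 0.990).

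Osteoblast-lineage cells showed the same pair. *Lox* was at 41.0 and 58.9 CPM in steady-state Tom+ libraries and at 347, 282, 260.2 and 251 CPM after injury (log2 fold change 2.58, SE 0.31, adjusted p = 0.0152), and *Plod2* was at 178 and 150.4 CPM and then at 497, 393, 344 and 377 CPM (1.41, SE 0.26, adjusted p = 0.0311). The groups did not overlap. With 2 of 9 members called against 2.1% of 5094 genes, both calls were lost without either steady-state Tom+ library, and that of *Plod2* also without injured Tom+ replicate 2 (adjusted p = 0.0713) or 4 (0.0525). Over all 20 alternative settings, the *Lox* call was lost in 3 and the *Plod2* call in 8. In cluster 6, *Loxl2* and *Plod2* were the members called, 2 of 9 against 9.07% of 4864 genes. *Loxl2* was there at 35.5 and 21.6 CPM in the steady state, on 5 UMIs each, and at 209, 168, 128 and 81.7 CPM after injury (2.42, SE 0.54, adjusted p = 0.0219). *Plod2* was at 35.5 and 94.9 CPM and then at 412, 532, 289 and 307 CPM (2.47, SE 0.47, adjusted p = 0.0120). *Lox* was at 220 and 194 CPM before and 293 to 849 CPM after injury (1.38, SE 0.39, adjusted p = 0.0537). It was called in 6 alternative settings, among them DESeq2 (1.78, adjusted p = 0.00262). Another was the format as a block (2.00), which rests on injured Tom+ replicate 1. Whether the cluster 6 calls of *Loxl2* and *Plod2* were lost under alternatives was not tallied.

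Tenocyte-lineage cells, marked by *Tnmd* and *Kera*, behaved otherwise. They held *Lox* at 343 and 695 CPM already in the steady-state Tom+ libraries and at 391 CPM in the Tom-GFP+ one, against 28.8 to 63.4 CPM in the steady-state sublining fibroblasts. After injury *Lox* was at 711, 403, 280.4 and 226 CPM in Tom+ tenocyte-lineage cells (log2 fold change -0.43, SE 0.46, adjusted p = 0.615), and the groups overlapped. *Plod2* was at 283 and 336 CPM and then at 730.1, 609, 436 and 433 CPM, without overlap (0.77, SE 0.28, adjusted p = 0.129). *Serpinh1* was at 1886 and 1811 CPM and then at 3454, 3412, 3160.5 and 3066 CPM (0.76, SE 0.23, adjusted p = 0.0724). *Serpinh1* was called with DESeq2 (adjusted p = 0.0116), and without the low-count filter both genes were (adjusted p = 0.0402 for *Plod2* and 0.0303 for *Serpinh1*). The single member called, of 10 tested and against 6.67% of 6465 genes, was *Loxl4*. It had 3 and 9 UMIs in the steady-state Tom+ libraries (16.4 and 23.1 CPM) and 0 in all 4 injured ones, which at a floor of 3 counts over the group makes it at least 22.1-fold lower (adjusted p = 0.0236). In the Tom-GFP+ libraries it had 8 UMIs before and 1 in each library after injury. *Loxl4* passed the low-count filter only through the steady-state libraries, where it was higher, so the call is no support apart from these counts. The call was lost without steady-state Tom+ replicate 1 (adjusted p = 0.0797) and with the format as a block (0.0935).

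**Figure D2:**
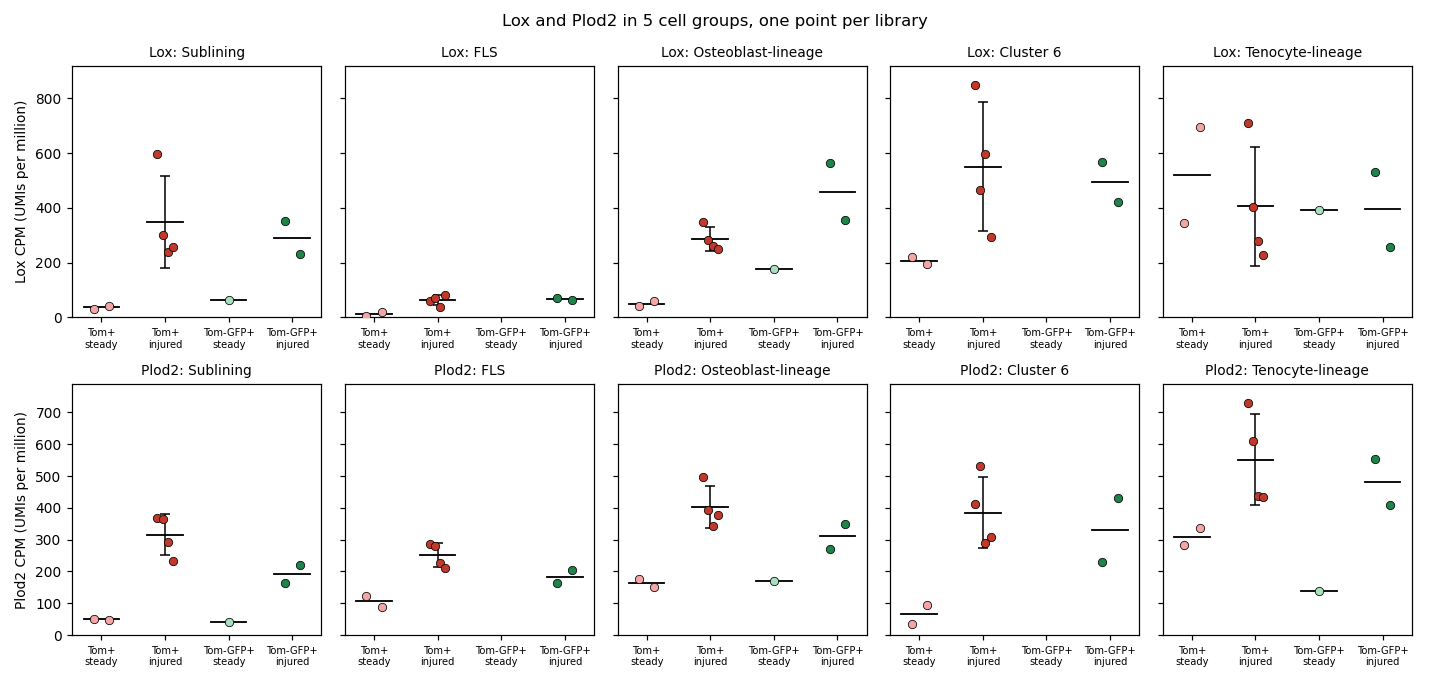
*Lox* (upper row) and *Plod2* (lower row) in 5 cell groups, in CPM on a linear axis from 0 shared within a row, with 1 point per library, the group mean as a bar and the SD where a group has 3 or more libraries. Steady-state *Lox* is near 0 in FLS, under 100 CPM in Tom+ sublining and osteoblast-lineage cells, and at 343 to 695 CPM in tenocyte-lineage cells. Of the 4 injured Tom+ libraries, 1 lies above and 2 lie below the steady-state Tom+ ones for *Lox* in tenocyte-lineage cells.

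Whether injury acted differently on the cell groups was tested in 1 fit over the Tom+ sums with a term for class by state, added after seeing the data. The change of *Lox* in tenocyte-lineage cells was 3.59 lower on the log2 scale than that in sublining fibroblasts (difference -3.59, SE 0.43, adjusted p = 8.39e-05), where 0.35% of 9725 genes were called. For *Plod2* the difference was -1.82 (SE 0.26, adjusted p = 0.000432) in tenocyte-lineage cells. It was -1.29 (SE 0.28, adjusted p = 0.0153) in FLS, where 1.29% of genes were called, and -1.14 (SE 0.27, adjusted p = 0.0380) in osteoblast-lineage cells, where 0.946% were. Steady-state *Plod2* was higher in each of these groups than in sublining fibroblasts, and that level is the base of the fold change. A link between level and change was not tested. For *Lox*, the difference from sublining fibroblasts was -0.74 (SE 0.79) in FLS, -0.50 (SE 0.55) in osteoblast-lineage cells and -1.69 (SE 0.48) in cluster 6, with adjusted p-values of 0.8291, 0.8295 and 0.0923. *Plod2* in cluster 6 differed from sublining fibroblasts by -0.08 (SE 0.33, adjusted p = 0.978).

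**Figure D3:**
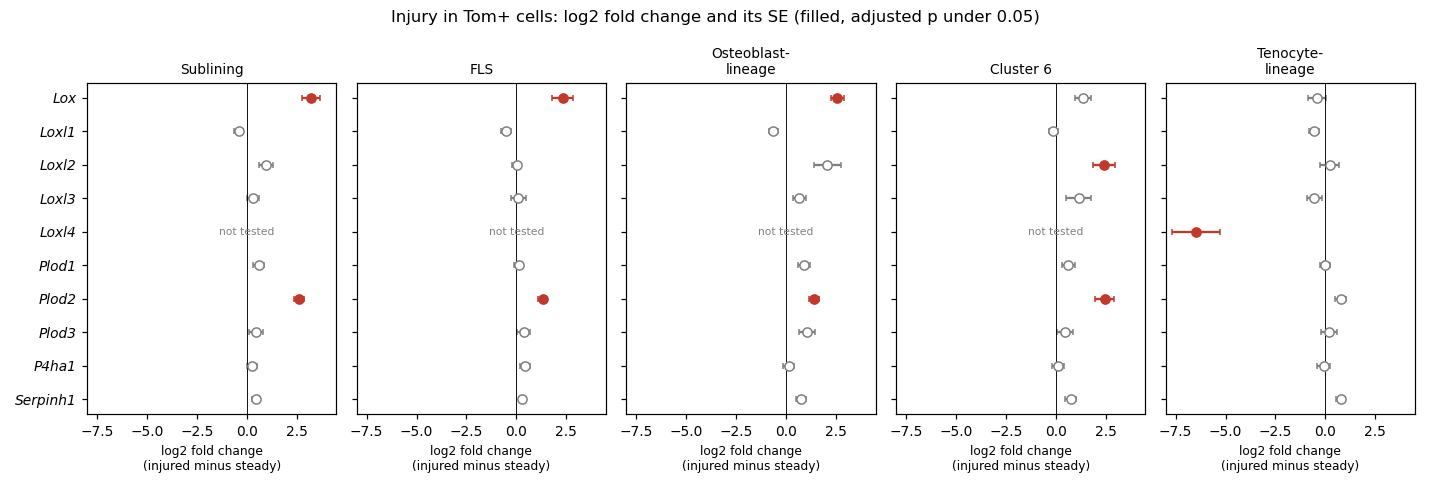
Log2 fold change after injury of each gene in Tom+ cells of 5 cell groups, with bars of 1 SE, filled where the adjusted p was under 0.05. *Lox* was called in 3 of the groups, *Plod2* in 4, *Loxl2* in cluster 6 and *Loxl4* in tenocyte-lineage cells, where the fitted value of -6.48 rests on 0 UMIs after injury and is no estimate of size.

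The cell groups were then compared with sublining fibroblasts within libraries, with the library as a block. Chondrocyte-lineage cells, which make cartilage matrix, differed for 6 of 10 members. After injury *Plod2* was at 774 ± 139 CPM in them (SD, n = 5 libraries) against 274 ± 82.6 in sublining fibroblasts (n = 6), higher in 5 of 5 libraries (log2 fold change 1.49, adjusted p = 2.33e-06). *P4ha1* was at 256 ± 65.4 against 103 ± 28 CPM (1.31, adjusted p = 4.60e-05). *Loxl4* was at 31.4 ± 24.6 against 2.31 ± 1.19 CPM (3.82, adjusted p = 2.51e-06), on 1 to 15 UMIs per library. It passed the low-count filter only through chondrocyte- and osteoblast-lineage sums, where it was highest. Its calls in these groups are thus no support apart from those counts. *Loxl3*, a lysyl oxidase known from cartilage and palate development, was at 112 ± 53.1 against 49.6 ± 10.5 CPM (1.18, adjusted p = 0.00191). With DESeq2, which differs in fit, test and size factors, the *Loxl3* difference was 0.74 (adjusted p = 0.0565), and the median over all genes was 0.83 in place of -0.06. The reverse held for *Loxl1*, at 58.3 ± 68.9 against 437 ± 77.1 CPM (-3.01, adjusted p = 2.19e-09), and *Loxl2*, at 80.0 ± 93.7 against 175 ± 74.2 CPM (-1.19, adjusted p = 0.000918). With 4 members higher, *Loxl4* among them, and 2 lower of 10, the background was 28.2% of 8824 genes. In the steady state *Plod2* was at 426 and 569 CPM in chondrocyte-lineage cells and 40.1 to 51.9 CPM in sublining fibroblasts (3.64, adjusted p = 1.72e-07). *Loxl1* was again lower (-2.98, adjusted p = 0.00348) and *P4ha1* higher (0.85, adjusted p = 0.0462), 3 of 9 members against 22.3% of 6021 genes. Chondrocyte-lineage *Loxl1* was at 4.79 CPM in the steady-state Tom+ library and 207 CPM in the Tom-GFP+ one. After injury it was at 0 to 50.5 CPM in Tom+ libraries and 176 CPM in the Tom-GFP+ library. The paper describes steady-state Tom+ chondrocytes as of the superficial zone, and Tom- ones as mature or hypertrophic and likely from growth plate. The *P4ha1* call was lost in 6 settings, among them without steady-state Tom+ replicate 1 (adjusted p = 0.146). *Lox* in injured chondrocyte-lineage cells spread from 7.30 to 702 CPM between libraries and was not called (-0.84, adjusted p = 0.139).

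After injury 4 of 10 members were called between FLS and sublining fibroblasts, all lower in FLS. This is close to the 36.7% of all genes called, so the count does not set these members apart. *Lox* was at 63.7 ± 14.4 against 329 ± 138 CPM (n = 6 each), lower in 6 of 6 libraries (log2 fold change -2.37, adjusted p = 9.63e-07). *Loxl1* was at 219 ± 69.5 CPM (-1.17, adjusted p = 9.32e-05), *Loxl3* at 27.0 ± 5.90 CPM (-0.99, adjusted p = 0.000668) and *Serpinh1* at 1850 ± 316 against 2710 ± 309 CPM (-0.69, adjusted p = 0.000168). All 3 were lower than in sublining fibroblasts in 6 of 6 libraries. The hydroxylases *Plod1*, *Plod2*, *Plod3* and *P4ha1* were not called and differed by -0.37 to 0.17 with adjusted p-values of 0.184 to 0.821. In the steady state, with 20 and 32 FLS in the 2 libraries, 0 members were called by edgeR (18.5% of all genes, 1760 at an unadjusted p under 0.05 and 848 called by DESeq2), and *Lox* differed by -1.88 (adjusted p = 0.0911).

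Tenocyte-lineage cells had more *Lox* than sublining fibroblasts in the steady state, at 476 ± 191 against 44.9 ± 17.4 CPM (n = 3 each, log2 fold change 3.47, adjusted p = 3.35e-05). *Plod2* (2.47, adjusted p = 3.31e-05), *Loxl3* (1.44, adjusted p = 0.00119) and *Plod1* (1.17, adjusted p = 0.00236) were also higher, making 4 of 9 members against 7.77% of all genes. After injury, *Plod2* (0.97, adjusted p = 0.00183) and *Plod1* (0.50, adjusted p = 0.0356) were the members called, 2 of 10 against 9% of genes, and *Lox* was at 402 ± 189 against 329 ± 138 CPM (0.28, adjusted p = 0.740). The *Plod1* call after injury was lost in 8 of 16 alternative settings, among them without injured Tom+ replicate 1, 2 or 4 or Tom-GFP+ replicate 2 (adjusted p = 0.0571 to 0.102), and that in the steady state without Tom+ replicate 1 (0.0616) and with the marker gate (0.145). The steady-state *Loxl3* call was also lost with the marker gate (0.209). In osteoblast-lineage cells after injury, *Loxl2* was lower (59.9 ± 33.3 CPM, -1.46, adjusted p = 9.39e-06), as was *Loxl1* (-0.80, adjusted p = 0.0204). *Plod1* (0.62, adjusted p = 0.00646), *Serpinh1* (0.48, adjusted p = 0.0197) and *Loxl4* (2.17, adjusted p = 0.00750, on 0 to 9 UMIs per library) were higher, 5 of 10 members against 15.5% of genes. The 5 include *Loxl4*. It passed the low-count filter only through chondrocyte- and osteoblast-lineage sums, so its call is no support apart from those counts. The *Loxl1* call was lost without injured Tom+ replicate 2, 3 or 4 (adjusted p = 0.0571 to 0.110), that of *Serpinh1* in 4 settings (0.0721 without replicate 3, and 0.452 with a difference of 0.22 in DESeq2), that of *Plod1* with DESeq2 (0.0741) and without the low-count filter (0.0527), and that of *Loxl4* without replicate 1 (0.0576). In the steady state *Loxl2* was lower (-1.83, adjusted p = 0.00154) and *Plod2* higher (1.71, adjusted p = 0.000249), 2 of 9 against 21% of genes, and without Tom+ replicate 2 the *Loxl2* call was lost (adjusted p = 0.0512).

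Mural cells, which surround vessels, had less *Loxl1* (187 ± 201 CPM, n = 3, log2 fold change -1.44, adjusted p = 0.00128) and less *Plod2* (97.4 ± 90.9 CPM, -1.60, adjusted p = 0.000233) than injured sublining fibroblasts, 2 of 10 members against 17.2% of genes. Their 3 libraries spread widely, with *Serpinh1* between 2391 and 7711 CPM. Mural *Plod2* was lower in injured Tom+ replicates 1 and 2. In injured Tom-GFP+ replicate 1, with 12 mural cells, it was higher, at 199.8 CPM against 164 CPM in sublining fibroblasts. Cluster 5 was higher for 5 of 10 members, against 21.8% of genes. These were *Loxl3* (0.89, adjusted p = 0.00349), *P4ha1* (0.78, adjusted p = 0.00720), *Plod3* (0.73, adjusted p = 0.00397), *Serpinh1* (0.49, adjusted p = 0.0143) and *Plod1* (0.42, adjusted p = 0.0488). Cluster 6 was higher for *Loxl3* (0.79, adjusted p = 0.0201) and *Serpinh1* (0.50, adjusted p = 0.0203), 2 of 10 against 10.7%. Proliferating cells were higher for *Plod3* (0.70, adjusted p = 0.00509) and *Loxl3* (0.63, adjusted p = 0.0372), 2 of 10 against 33.8%. Cluster 10 was lower for *Loxl2* (-0.78, adjusted p = 0.0125), 1 of 10 against 13.8%. In the steady state cluster 6 was higher for *Lox* (2.25, adjusted p = 0.00968), 1 of 9 against 6.08%, and cluster 5 gave 0 of 9 against 0.482% (edgeR, 805 genes at an unadjusted p under 0.05 and 347 called by DESeq2).

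**Figure D4:**
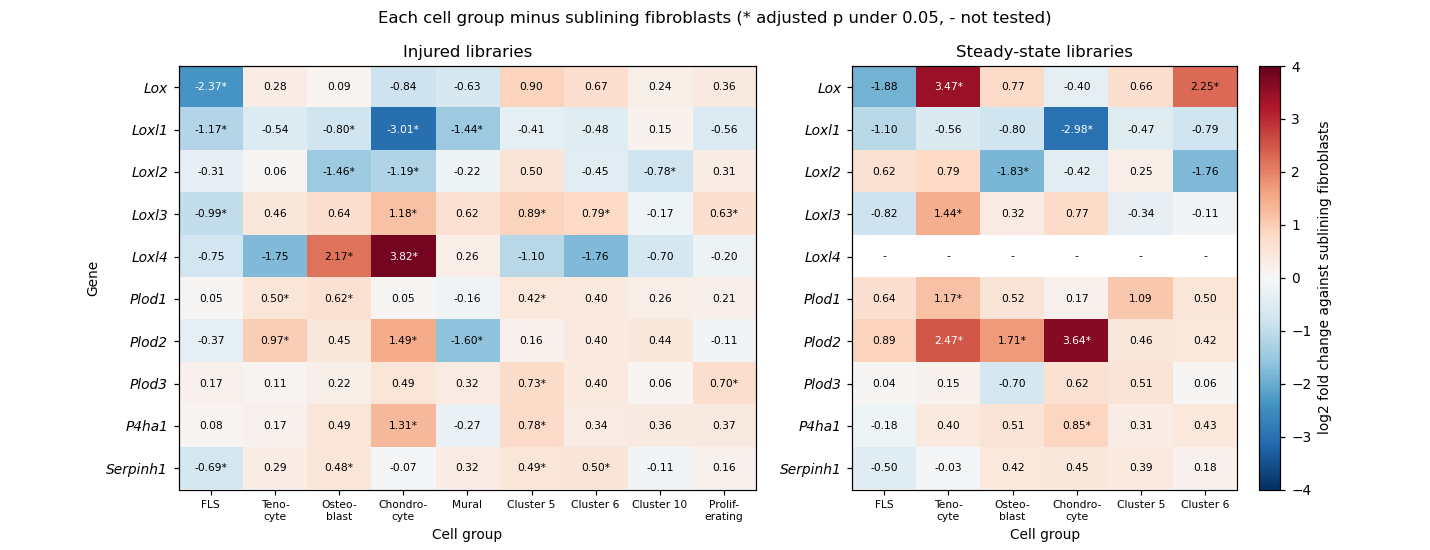
Log2 fold change of each gene in each cell group against sublining fibroblasts, in injured (left) and steady-state libraries (right), on a colour scale from -4 (blue) to 4 (red), with an asterisk where the adjusted p was under 0.05. *Loxl1* is below sublining fibroblasts in every group but cluster 10, and *Plod2* is highest in chondrocyte-lineage cells in both states.

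The cell groups were ordered by mean level. For *Plod2* after injury, chondrocyte-lineage cells came first (774 ± 139 CPM), followed by tenocyte-lineage cells (528 ± 126), cluster 10 (423 ± 86.9), osteoblast-lineage cells (372 ± 74.2), cluster 6 (367 ± 111) and cluster 5 (315 ± 104). Proliferating cells (276 ± 57.4), sublining fibroblasts (274 ± 82.6) and FLS (229 ± 47.4) came next, and mural cells (97.4 ± 90.9) followed. The ranges of neighbouring groups in that order overlapped. For *Lox* the order ran from cluster 5 (629 ± 285 CPM), cluster 6 (532 ± 189.7) and proliferating cells (478 ± 282) to FLS (63.7 ± 14.4), again with neighbours that overlapped. Immune cells held few transcripts of the lysyl oxidases. Over all 105 immune cells, *Loxl1* had 1 UMI, *Loxl2* 5, *Loxl3* 3, *Loxl4* 0, *Plod2* 7 and *Lox* 15, whereas *Plod1*, *Plod3* and *P4ha1* had 71, 46 and 46. The 46 endothelial cells had 87 UMIs of *Lox* and 22 of *Plod2*.

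The partners of these enzymes were read from lists. In Tom+ sublining fibroblasts 7 of the 10 fibrillar collagen and elastic-fibre substrates rose after injury and 0 fell, with a median log2 fold change of 1.56 against -0.02 over all genes. The share of all genes called there, in either direction, was 11.2%. *Col1a1*, the major chain of type I collagen, rose by 2.09 (SE 0.22, adjusted p = 0.00117), *Eln*, which encodes elastin, by 1.99 (SE 0.35, adjusted p = 0.00980), *Col5a3* by 1.78 (SE 0.29) and *Col5a2* by 1.70 (SE 0.25). Of 21 other collagen-processing genes, 2 rose and 1 fell (median 0.40), which is not far from that share. *P4ha3*, a further prolyl 4-hydroxylase alpha subunit, rose by 1.58 (SE 0.27, adjusted p = 0.00842), and *Fkbp10*, a chaperone that works with PLOD2, by 1.14 (SE 0.32, adjusted p = 0.0451). *Pcolce2*, an enhancer of procollagen C-proteinase, fell by 2.67 on the log2 scale (adjusted p = 0.00117). Of 12 tested hypoxia-response genes, 2 rose and 1 fell. *Pfkfb3* rose by 2.46 and *Ldha* by 1.10, both of glycolysis, and *Ndrg1* fell by 0.97. Of 12 genes for folding in the endoplasmic reticulum, 0 were called by edgeR (median -0.27). Of 5 general fibroblast genes *Lum* rose by 1.36, and *Dcn* and *Pdgfra* fell by 1.12 and 1.02. Of the 5 red-cell and immune transcripts tested, 0 were called by edgeR, with a median of 1.57.

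In Tom-GFP+ sublining fibroblasts 3 of 10 substrates rose (*Col1a1* by 2.46, *Col3a1* by 1.75 and *Col1a2* by 1.57), and of 21 processing genes 1 did (*P4ha3* by 2.29). Of all genes, 0.795% were called there. In Tom+ tenocyte-lineage cells, where *Lox* was not called and 6.67% of all genes were, 5 of 9 tested substrates rose (median 1.58), *Col1a1* by 2.07 and *Col5a1* by 1.92. *P4ha3* rose there by 1.73 and *Bmp1*, a procollagen C-proteinase that also activates pro-lysyl oxidase, by 0.91, and *Pcolce2* fell by 3.81, as 2 higher and 1 lower of 18 tested. Substrates rose in 3 of 8 tested in FLS, 2 of 10 in osteoblast-lineage cells and 6 of 9 in cluster 6, and 0 fell in these groups. The shares of all genes called were 3.75%, 2.1% and 9.07% in the same order. In injured FLS against sublining fibroblasts, 8 of 10 substrates were lower and 0 higher (median -2.17), among them *Fbn1* (-3.60) and *Col1a2* (-3.19). Of all genes, 36.7% were called in that comparison.

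Across 59 sums of library and class with at least 20 cells, the genes whose log2(CPM + 1) was most like each member's were described by Pearson's r, among 8010 genes with a mean of at least 10 CPM. The sums share libraries and depth. *Serpinh1* was most like *Rcn1* (0.96), *Kdelr3* (0.95) and *Copz2* (0.93). *Lox* was most like the unnamed transcript *Gm38211* (0.83), *Col5a2* (0.82) and *P4ha3* (0.81), and *Plod2* most like *Slc1a4* (0.87), *P3h4* (0.86) and *Vkorc1* (0.85). *Loxl1* was most like *Prss23* (0.90), *Aebp1* (0.88) and *Ebf1* (0.87), *Loxl2* most like *Calu* (0.85), *Praf2* (0.82) and *Txndc5* (0.82), and *Loxl3* most like *Tmem45a* (0.87), *Fkbp10* (0.86) and *Sec24d* (0.86). The values were lower for *Plod1* (*Inf2*, 0.71), *Plod3* (*P4hb*, 0.75) and *P4ha1* (*Ssr1*, 0.78), and *Loxl4* was under the minimum level. Among the members, *Loxl3* and *Serpinh1* were the most alike (0.83), followed by *Plod2* and *Serpinh1* (0.77).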

How the data were processed

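The deposited matrices hold raw counts of UMIs per gene and barcode, which the authors made with Cell Ranger on GRCm38.p6, per the labels. Per the file headers, 5 matrices name software version 3.0.2, and other settings are not given in the sources used here. The study describes as many mice as libraries in each group and calls the Tom-GFP+ mice matched. The sources used here do not say which Tom+ and Tom-GFP+ libraries belong together, and the fits treated libraries as independent. Intervals and floors cover counting error only.

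Barcodes needed at least 500 genes and 1000 UMIs, of which at most 10% mitochondrial. Libraries were integrated and clustered in Seurat 5.3.0 (2000 variable genes, 30 dimensions, resolution 1) with 116 genes held out. Clusters were named from listed markers by a rule on fold and detection set after clusters had been seen. Scrublet called 1.086% of cells doublets, and these were kept. Class sums with at least 10 cells were tested with edgeR 4.0.16 (quasi-likelihood test, TMM, filterByExpr). The SE given with an edgeR change is its absolute log2 fold change divided by the square root of the test's F statistic. Adjusted p-values are Benjamini-Hochberg over all genes tested, and a gene was called under 0.05. Injury tests used all libraries holding the class in 1 fit of lineage by state, so that the single steady-state Tom-GFP+ library takes its spread from the others. Tests between classes had the library as a block. Alternatives were DESeq2 1.42.0, other size factors, filters, resolutions, gates and blocks, and leaving out each library. The test of injury in Tom+ sublining fibroblasts was tried on simulated data, and the other tests were not. The 10 members are named in each comparison, with up to 4 called genes per partner list and the 3 most similar genes per member. Members and lists were chosen with earlier results of these data known.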

Additional observations from a re-analysis of the deposited data

Results flagged for a closer look

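In 83 sets of the 4 injured Tom+ libraries, each for 1 gene in 1 class, 3 held a library far from the others by Dixon's criterion, which chance meets in about 1 in 20 sets, and all 3 were injured Tom+ replicate 1, the deepest library. *Loxl1* in its sublining fibroblasts was at 283 CPM against 453 to 473 CPM in the other 3. *Loxl3* in its proliferating cells was at 144 CPM against 50.5 to 51.6 CPM. *Loxl2* in its chondrocyte-lineage cells was at 247 CPM against 29.2 to 54.5 CPM.

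The effect of injury in Tom+ cells differed from that in sublining fibroblasts, by the test of class by state, in 4 cases. For *Lox* the difference was -3.59 on the log2 scale in tenocyte-lineage cells. For *Plod2* it was -1.82 in tenocyte-lineage cells, -1.29 in FLS and -1.14 in osteoblast-lineage cells.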

How the results depend on the processing

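In Tom+ sublining fibroblasts *Lox* and *Plod2* were called under every alternative run, and with the gene-list format as a block *Loxl2* and *Loxl1* joined them. With that block, injury in Tom+ cells rests on injured Tom+ replicate 1 alone. For Tom-GFP+ cells the format moves fully with the injury, and its term comes from the Tom+ libraries. In Tom+ sublining fibroblasts *Loxl2* also joined with DESeq2 (adjusted p = 0.0463) and without a low-count filter (edgeR, adjusted p = 0.000459). In Tom-GFP+ sublining fibroblasts 1 member was called, against 2 without a low-count filter, with DESeq2, with the marker gate and with the format block, and 0 to 2 when a library was left out. In FLS 2 were called, against 3 with DESeq2 (*Serpinh1* joined, adjusted p = 0.0437), 1 with the marker gate and 1 with the format block, and 0 to 2 when a library was left out. In osteoblast- and tenocyte-lineage cells together 3 were called, against 6 without a low-count filter, 1 without the highest Scrublet scores and 1 with the format block, and 0 to 3 when a library was left out. Over the 5 named classes compared with injured sublining fibroblasts 19 were called, against 12 at resolution 1.5. The 19, and the 3 of osteoblast- and tenocyte-lineage cells, include *Loxl4* calls, which are no support apart from the counts behind them. Over the 4 steady-state classes 9 were called, against 15 without a filter and 14 at resolution 1.5. Some classes were missing from some settings, so totals over classes are not like for like. Mural cells were compared in 11 of 16 alternatives and steady-state chondrocyte-lineage cells in 10 of 13. The counts of members, here and with the replicate block below, stand without the share of all genes called in that setting. They are no result about the members. The lineage and interaction tests called 0 members under each alternative run. No direction of a called member reversed, and over the alternatives 480 values of called members did not lose the call and 58 did, where 1 of the 480 (*Loxl4* of tenocyte-lineage cells with DESeq2) had no adjusted p. The cause of these changes was not tested. Over all genes, DESeq2 called 250 in Tom-GFP+ sublining fibroblasts and 673 in FLS, against 95 and 340 by edgeR, and dropping the filter gave 2311 against 1337 in Tom+ sublining fibroblasts. Adding clusters 5 and 6 to the sublining fibroblasts was chosen after seeing the data. Inclusion of an Lrrc15+ cluster was not run because no cluster met that name. For clusters 5, 6 and 10 and proliferating cells, member calls under the alternatives between classes were not tallied. The cell-by-cell marker gate placed 1091 of 4328 cells in an Lrrc15 group. Whether injury changed which cells make up a class was not tested. The injury calls of cluster 6 were not part of the counts of kept and lost calls.

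With the replicate number as a block, 3 members were called in Tom+ sublining fibroblasts, where *Loxl2* joined (log2 fold change 1.34, adjusted p = 0.0154), 2 in FLS and 0 between lineages. In osteoblast- and tenocyte-lineage cells 2 were called, where *Plod2* was lost in the former (adjusted p = 0.0659) and joined in the latter (0.97, adjusted p = 0.0448) and *Loxl4* gave no value. In cluster 6 *Lox* (adjusted p = 0.0132) and *Loxl3* (0.0494) joined. The study calls the Tom-GFP+ mice matched without tying them to replicate numbers. Same-numbered libraries correlated in their deviations by -0.02 to 0.12, and differently numbered ones by -0.12 to 0.11. In a group of 2 libraries the deviations mirror each other, so this check cannot decide on pairing. For lack of a source, the numbers were not taken as pairs.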
